A study of Mus musculus with 9 samples.

Results

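The ionotropic and metabotropic glutamate receptor subunits and the GABA-A receptor subunits were followed in embryonic mouse cortex of the strain C57BL/6J, taken at embryonic day 18.5 from 3 Cyfip2 genotypes. These were wild type (WT), animals with 1 mutant copy (Het) and animals with both copies mutant (KO). Members were all genes named Gria, Grin, Grik or Grid with their number and letter, the Grm genes of metabotropic glutamate receptors, and the Gabr genes of GABA-A receptors, with a mean normalized count of at least 10 over the 9 libraries. That gave 39 of the 15069 genes tested. They comprise 4 AMPA, 6 NMDA, 5 kainate and 2 delta subunits, 7 metabotropic receptors, and 5 alpha, 3 beta and 7 other GABA-A subunits. Of the 44 subunit genes in the table, the other 5 (Gabra6, Gabrr1, Gabrr3, Grm6 and Grin3b) lay under that mean and were not tested between genotypes. Gabrp was not analysed here. Each genotype had 3 libraries of polyadenylated RNA from a strand-preserving kit. The labels neither describe the mutant allele nor say whether replicates were separate embryos, so each p-value rests on the spread among libraries alone.

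Cyfip2, a subunit of the actin-regulating WAVE complex, served to check the genotype labels. Normalized counts of Cyfip2 were 10169, 10344 and 11174 in WT, 8969, 9779 and 9882 in Het, and 7900, 7522 and 8255 in KO. The 3 genotypes did not overlap, but most of the transcript was still counted in KO. Approximate depth ran from 29.5 to 54.5 M (M, mega) reads per library. Neurod6, a marker of cortical excitatory neurons, lay between 19275 and 32658, and the cerebellar and hindbrain markers summed to 53 or less in every library. Cdhr1, made by olfactory bulb mitral cells, was at 2138 to 3436 in WT replicate 3, Het replicate 1 and KO replicates 1 and 2, and at 53.1 or less in the other 5 libraries. Of these 4, all but WT replicate 3 also had no Ddx3y, a Y-linked gene. Bulb RNA and sex therefore do not fall evenly over the genotypes. In whole tissue, fewer cells of a type and less RNA per cell cannot be told apart.

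AMPA, NMDA and kainate receptors are glutamate-gated cation channels built from 4 subunits, and metabotropic glutamate receptors signal through G proteins. GABA-A receptors are chloride channels of 5 subunits, usually alpha and beta subunits with a gamma or delta subunit. Before birth GABA often depolarizes cortical neurons, because the chloride importer Slc12a2 outweighs the exporter Slc12a5. Rodent cortex is known to exchange Grin2b for Grin2a as synapses mature after birth.

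Among the most abundant subunit transcripts at this age were Gria2, the kainate subunits Grik5 and Grik3, Gria1 and Grin2b, while Grin2a was low. Levels between genes were compared as normalized counts per kb of exon, taking the union of a gene's exons. Gria2 was the highest member at 2182 per kb (mean of 9 libraries), followed by Grik5 at 1686, Grik3 at 1060 and Gria1 at 1058, and Grin2b stood at 811. Gria2 lay above Grik5, and Grik5 above Grik3, in all 9 libraries. Grik3 and Gria1 could not be ordered, since libraries ranked them differently. This order depended on the gene length used. With the median transcript length, the means of the 9 libraries put Grin2b at rank 1, Grik5 at 2, Gria2 at 3, Gria1 at 7 and Grik3 at 10. With the longest transcript Gria2 and Grik5 stayed at ranks 1 and 2 and Grik3 stood at 5. The low end included Gabre at 4.29, Grin2a at 5.63, Gabrq at 6.33 and Gabrr2 at 8.50 per kb. Adjacent members between Gabra5 and Grik2, from 500.2 to 221 per kb, changed places between libraries. Further down, Grik2 lay above Gabra2 (144) and Grid1 (140) above Grin2d (105) in all 9.

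**Figure D1:**
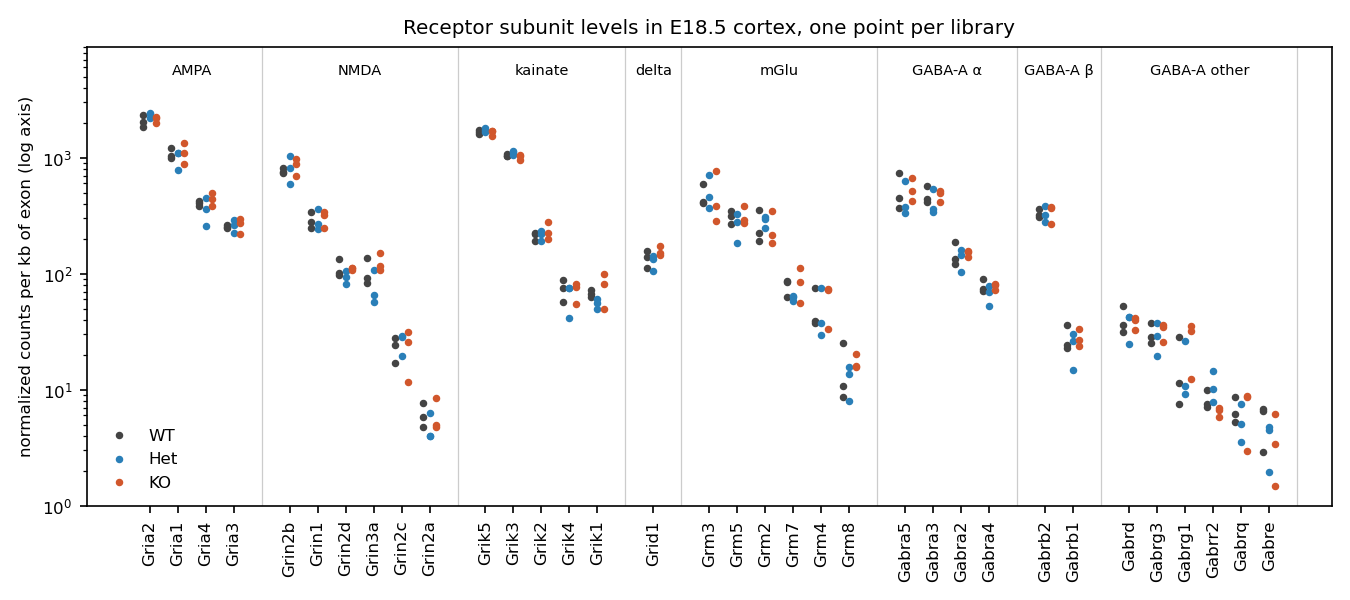
Normalized counts per kb of exon (log axis) for 34 receptor subunit genes, grouped by family, with 1 point per library coloured by genotype. Gria2 heads the plot at 2182 per kb and Gabre ends it at 4.29, and the points of the 3 genotypes lie on top of each other for most genes.

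Summed per kb over the subunits of a class, AMPA subunits reached 3807 ± 252 in WT (SD, n = 3), GABA-A subunits 3355 ± 491, kainate subunits 3076 ± 34.1, NMDA subunits 1304 ± 139 and metabotropic receptors 1268 ± 284. In KO the same per-kb sums were 3957 ± 305, 3419 ± 401, 3056 ± 155, 1421 ± 197 and 1299 ± 304. For each class the KO and WT libraries overlapped. These sums used the union of exons, and the order of the classes was not worked out with other gene lengths. With the median transcript length in WT, Grin2b alone stood at 27220 per kb and Gria2 at 9019, so this order depends on the length used.

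**Figure D2:**
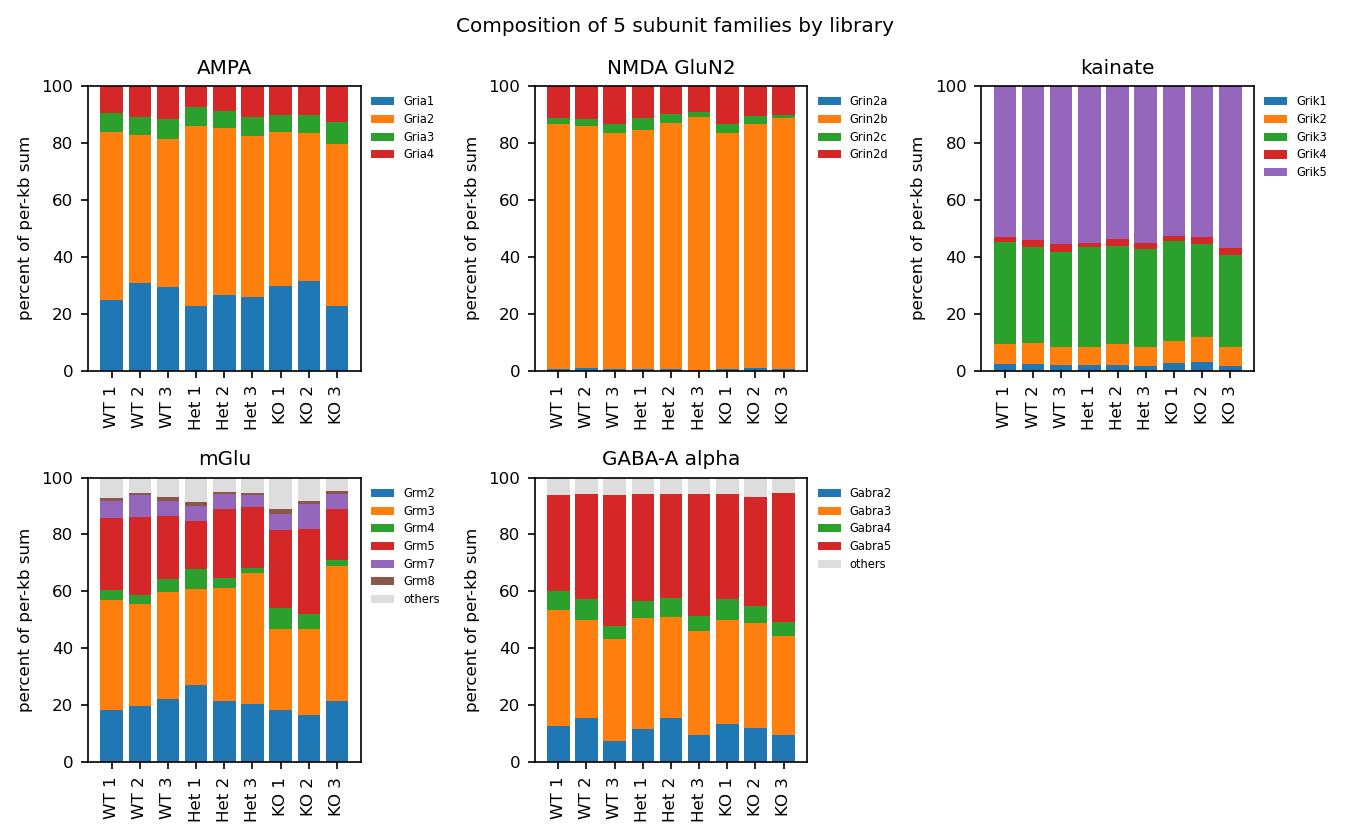
Share of each gene in the per-kb sum of its family, in percent, for 5 families, with 1 stacked bar per library and remaining genes in grey. Gria2, Grin2b and Grik5 each fill more than 50% of their family's bar in all 9 libraries, whereas the alpha family is divided mainly between Gabra5 and Gabra3.

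No receptor subunit was called between genotypes. limma, with Benjamini-Hochberg adjustment over all genes tested, called 0 of the 39 members at an adjusted p under 0.05 in KO against WT, in Het against WT and in KO against Het, where 0.0% of all genes were called in each. At an unadjusted p under 0.05, there were 0 members in KO against WT (1.18% of all genes), 0 in Het against WT (1.61%) and 1, Grin3a, in KO against Het (3.59%). The 3 libraries of KO and WT did not overlap for 1 member, Gabrr2 (6.46% of all genes), and those of Het and WT for 1, Grik1 (6.67%). KO and Het did not overlap for 4 members, or 10.3%, where 7.82% of all genes did not. The latter were Grid1 and Grin2d, higher in KO, and Grik3 and Gabrr2, lower in KO. Between Het and KO, deviations of same-numbered libraries over all genes correlated at 0.10 to 0.47, and those of other numbers at -0.46 to 0.15. The 2 ranges overlap, so the pairing is uncertain. That comparison was also fitted with the number as a block over all 9 libraries. It then gave 6 members an unadjusted p under 0.05, or 15.4%, where 6.53% of all genes had one, and 0 an adjusted p under 0.05. The 6 were Grin3a, Gria4, Grid1, Grik1, Grm7 and Gabra5, each higher in KO. Het replicate 1 and KO replicate 1 both held bulb RNA, whereas KO replicate 2 held it and Het replicate 2 did not. For the other comparisons the numbers did not pair the libraries, and the block gave 1 member in Het against WT (3.27% of all genes) and 0 in KO against WT (2.54%). The comparisons share libraries, so their counts are not independent.

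Precision differed between subunits. Over the members, the median distance from a fold change to either end of its 95% interval was 0.53 on the log2 scale, ranging from 0.12 to 1.38. In KO against WT, 33 of the 39 intervals lay within a log2 change of 1 in either direction, as did 30 in Het against WT and 27 in KO against Het. Intervals within 0.5 were found for 15, 11 and 9 members. Smaller changes in most subunits could not be detected with 3 libraries a group.

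**Figure D3:**
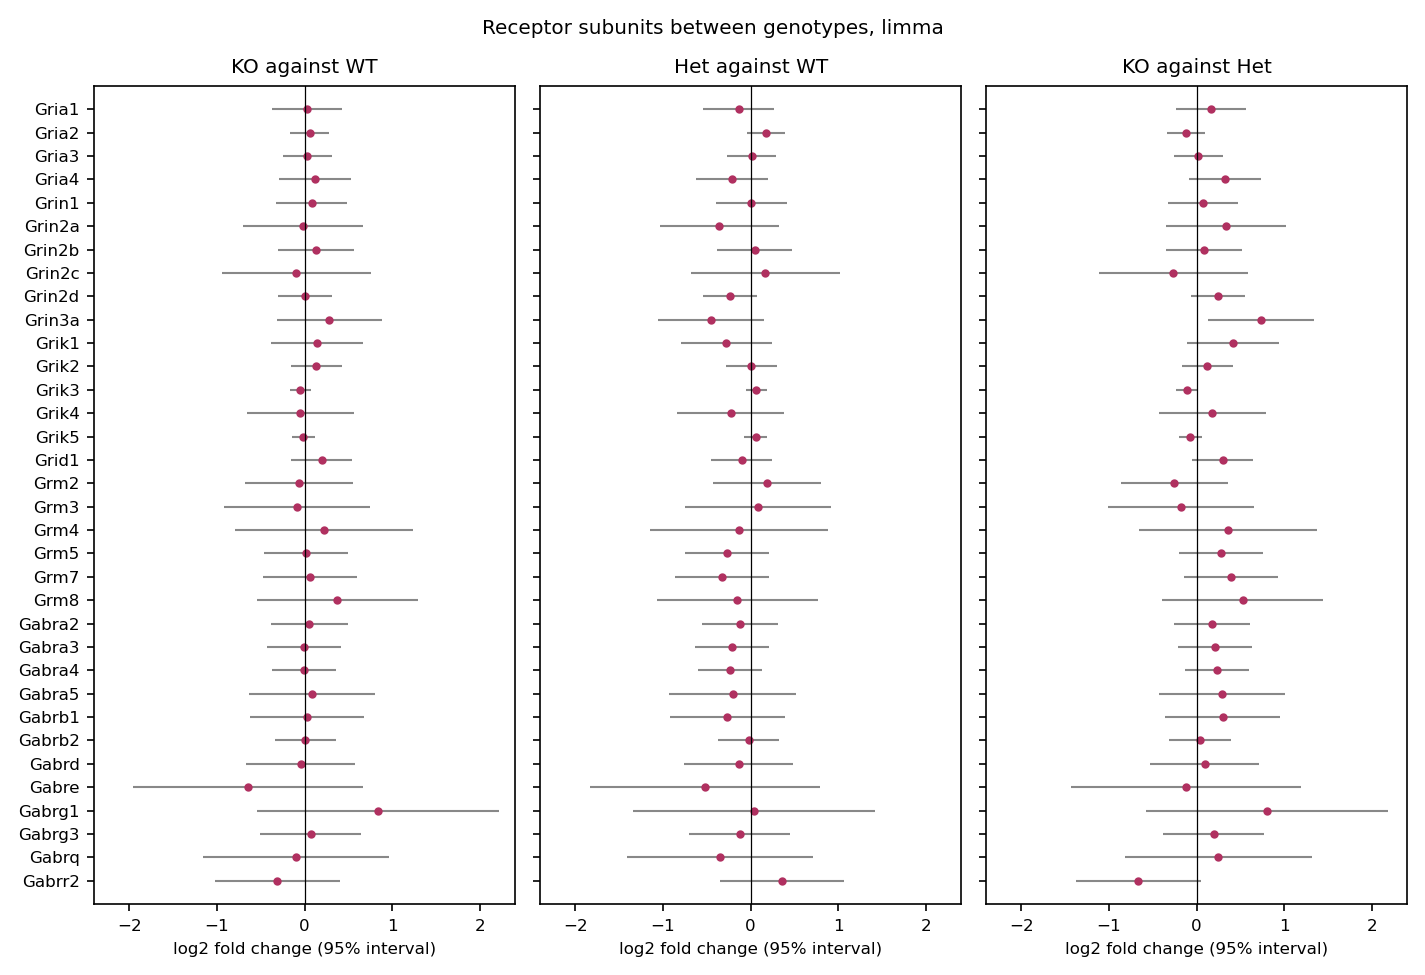
log2 fold changes of 34 subunit genes with their 95% intervals (limma) in the 3 comparisons, 1 panel each. In KO against WT and Het against WT every interval crosses 0, in KO against Het the interval of Grin3a (0.13 to 1.33) does not, and Gabrg1 and Gabre have the widest intervals.

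Among AMPA subunits, Gria2 (ENSMUSG00000033981, chr3:80681450-80802835, minus strand, GRCm38) predominated. Gria2 encodes GluA2, which makes the channel impermeable to calcium once its transcript is edited. Gria2 made up 54.3 ± 4.05% of the AMPA per-kb sum in WT, Gria1 28.3 ± 3.09%, Gria4 10.6 ± 0.955% and Gria3 6.71 ± 0.337% (SD, n = 3). The normalized counts of Gria2 were 36520, 31602 and 28513 in WT, 34079, 37810 and 36683 in Het, and 30891, 34635 and 34531 in KO. WT replicate 3 was the lowest library and the groups overlapped. Gria2 had a log2 fold change of 0.17 ± 0.10 (limma SE) in Het against WT and 0.06 ± 0.10 in KO against WT. Without WT replicate 3 the Het value was 0.09, without WT replicate 1 it was 0.27, and the KO value without WT replicate 3 was -0.03.

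Gria4, a subunit with fast kinetics, had counts of 2409, 2675 and 2546 in WT, 1639, 2256 and 2843 in Het, and 2406, 2754 and 3142 in KO. Het replicate 1 was the lowest and KO replicate 3 the highest, with overlap between all groups. Its log2 fold change in KO against Het was 0.33 ± 0.18, and 0.12 without Het replicate 1. Gria1, whose product GluA1 is inserted into synapses during potentiation, had means of 6507 ± 703, 5966 ± 1089 and 6708 ± 1417 for WT, Het and KO. The X-linked Gria3 had means of 2515 ± 51.8, 2552 ± 347 and 2591 ± 383 in the same order.

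NMDA receptors pair the obligatory subunit GluN1, encoded by Grin1, with GluN2 or GluN3 subunits. Grin2b (ENSMUSG00000030209, chr6:135713233-136173511) supplied most of the GluN2 transcript. It made up 84.7 ± 1.57% of the per-kb sum of Grin2a to Grin2d in WT, while Grin2d made up 12.1 ± 1.22%, Grin2c 2.51 ± 0.476% and Grin2a 0.669 ± 0.172% (SD, n = 3). GluN2B is the slow GluN2 subunit of immature forebrain synapses, and GluN2A is the faster one that joins them after birth. Counts of Grin2b were 18475, 18668 and 20263 in WT, 14863, 20201 and 25536 in Het, and 17222, 21965 and 24199 in KO. Those of Grin2a were 84.8, 137 and 104 in WT, 72.2, 112 and 71.1 in Het, and 85.3, 152 and 89.6 in KO. The ratio of their counts, not corrected for length, ran from 135 (WT replicate 2) to 354 (Het replicate 3), and the genotypes overlapped for both genes. Counts of Grin1 were 2380, 2719 and 3289 in WT, 2374, 2611 and 3478 in Het, and 2424, 3127 and 3313 in KO, which also overlapped.

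Grin3a (ENSMUSG00000039579, chr4:49661611-49845744) encodes GluN3A, which lowers calcium entry and delays synapse maturation in young rodents. Its counts were 1011, 1137 and 1673 in WT, 706, 802 and 1332 in Het, and 1326, 1834 and 1423 in KO. Het replicates 1 and 2 lay below all other libraries, Het replicate 3 lay within the KO range, and KO replicate 2 was the highest. In KO against Het the log2 fold change was 0.73 ± 0.26, with a 95% interval of 0.13 to 1.33, an unadjusted p of 0.0226 and a limma adjusted p of 0.942. The value was 0.55 without Het replicate 1 and 1.01 without Het replicate 3. Without the 4 libraries with bulb RNA it was 0.46, with KO replicate 3 as the only KO library left. Fits without Het replicate 1, without Het replicate 2 or without KO replicate 2 left 0 members higher in KO at an unadjusted p under 0.05. In Het against WT the log2 fold change was -0.45 ± 0.26 and in KO against WT 0.28 ± 0.26. Without WT replicate 3 these were -0.24 and 0.50, and without WT replicate 1 the latter was 0.13.

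Grin2d, typical of early and subcortical neurons and of interneurons, had counts of 651, 676 and 884 in WT, 541, 628 and 703 in Het, and 749, 712 and 739 in KO. The 3 KO libraries lay just above the 3 Het libraries and within the WT range. Its log2 fold change was 0.24 ± 0.14 in KO against Het, -0.23 ± 0.14 in Het against WT and 0.01 ± 0.14 in KO against WT. The Het against WT value was -0.10 without WT replicate 3 and 0.00 without the 4 libraries with bulb RNA. Grin2c, a subunit used mainly by cerebellar granule cells and astrocytes, had means of 116 ± 28.1, 130 ± 26.7 and 115 ± 51.2 in WT, Het and KO.

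Kainate receptors combine GluK1 to GluK3 (Grik1 to Grik3) with the high-affinity subunits GluK4 and GluK5 (Grik4 and Grik5). Grik5 (ENSMUSG00000003378, chr7:25009849-25072346) made up 54.2 ± 1.20% of the kainate per-kb sum in WT, Grik3 34.3 ± 1.20%, Grik2 6.93 ± 0.619%, Grik4 2.39 ± 0.496% and Grik1 2.19 ± 0.154%. Grik5 had counts of 8315, 8652 and 8874 in WT, 8602, 8961 and 9384 in Het, and 8001, 8850 and 8774 in KO. Grik3 had counts of 9727, 9347 and 9329 in WT, 9556, 9977 and 10196 in Het, and 9284, 9548 and 8625 in KO. These were the steadiest members, each with an SD of 0.07 over the 9 libraries on the log2 scale. Grik3 separated KO from Het, since the highest KO library (9548) lay just under the lowest Het library (9556). Its log2 fold change there was -0.12 ± 0.05, against -0.05 ± 0.05 in KO against WT.

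Counts of Grik2, whose transcript is also edited, were 2914, 2997 and 2552 in WT, 2516, 3112 and 2892 in Het, and 2976, 3690 and 2663 in KO. KO replicate 2 was the highest and the groups overlapped. In KO against WT the log2 fold change of Grik2 was 0.13 ± 0.13, and 0.00 without KO replicate 2. Grik1, whose product GluK1 is common in interneurons and sensory neurons, had group means of 453 ± 30.9, 374 ± 38.2 and 519 ± 172 for WT, Het and KO. Every Het library of Grik1 (334 to 410) lay below every WT library (422 to 484), with a log2 fold change of -0.28 ± 0.23, but the KO libraries (333 to 673) spanned both. Grik4 means were 439 ± 95.3, 382 ± 114 and 423 ± 82.3.

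The delta subunits bind cerebellins rather than glutamate at synapses, and Grid1 is the forebrain member. Grid1 had counts of 674, 940 and 830 in WT, 627, 798 and 851 in Het, and 895, 1029 and 856 in KO. All KO libraries exceeded all Het libraries, but not those of WT. The log2 fold change was 0.30 ± 0.15 in KO against Het and 0.19 ± 0.15 in KO against WT. The first was 0.16 without Het replicate 1, and the second was 0.06 without WT replicate 1. Without the 4 libraries with bulb RNA, KO replicate 3 was the only KO library left, and the first was 0.05.

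Metabotropic receptors fall into a Gq-coupled group that includes Grm5, the Gi-coupled group of Grm2 and Grm3, and the mainly presynaptic Gi-coupled group of Grm4, Grm6, Grm7 and Grm8. In WT, Grm3 made up 37.3 ± 1.41% of their per-kb sum, Grm5 24.9 ± 2.91%, Grm2 20.0 ± 2.04%, Grm7 6.26 ± 1.14%, Grm4 3.91 ± 0.783% and Grm8 1.11 ± 0.416%. Grm6, the receptor of retinal ON bipolar cells, was between 0 and 3.32 counts. Counts of Grm3 were 1253, 1256 and 1821 in WT, 1129, 1400 and 2161 in Het, and 867, 1177 and 2329 in KO. Replicate 3 was the highest library in each genotype, and the groups overlapped. Counts of Grm5 were 2762, 3248 and 3560 in WT, 1903, 2875 and 3346 in Het, and 2825, 3938 and 2948 in KO, with Het replicate 1 the lowest. Grm5 had a log2 fold change of -0.27 ± 0.21 in Het against WT and of 0.01 ± 0.21 in KO against WT.

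Grm7, a low-affinity presynaptic receptor, had counts of 373, 508 and 497 in WT, 340, 372 and 376 in Het, and 328, 658 and 499 in KO. One Het library reached above the lowest WT library, so the groups overlapped. The log2 fold change in Het against WT was -0.33 ± 0.24. Grm8 had counts of 86.3, 106 and 250 in WT, 135, 78.5 and 157 in Het, and 155, 160 and 201 in KO. WT replicate 3 was the highest for Grm8, and the groups overlapped. Grm2 means were 1258 ± 415, 1394 ± 160 and 1209 ± 420 in WT, Het and KO.

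GABA-A alpha subunits set where a receptor sits and how it responds to benzodiazepines. The alpha per-kb sum in WT was divided mainly between Gabra5 at 39.0 ± 6.42%, Gabra3 at 37.0 ± 3.47%, Gabra2 at 11.8 ± 3.97% and Gabra4 at 6.21 ± 1.46%. Gabra5 and Gabra3 changed order between libraries. Counts of Gabra5, the subunit of extrasynaptic receptors in hippocampus and deep cortex, were 1085, 1331 and 2209 in WT, 983, 1123 and 1882 in Het, and 1250, 1521 and 2004 in KO. Gabra3 counts were 1734, 1638 and 2250 in WT, 1348, 1430 and 2126 in Het, and 1626, 1931 and 2009 in KO. Both genes had their lowest value in Het replicate 1 and their highest in WT replicate 3, with overlap between the genotypes.

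Gabra2, an alpha subunit of young neurons, had counts of 1032, 1421 and 924 in WT, 786, 1220 and 1097 in Het, and 1168, 1211 and 1074 in KO. Het replicate 1 was the lowest and WT replicate 2 the highest, and the genotypes overlapped. Gabra6, an alpha subunit of cerebellar granule cells, was between 0 and 2.08 counts. In KO against WT the log2 fold changes were 0.06 ± 0.19 for Gabra2, -0.01 ± 0.19 for Gabra3 and 0.09 ± 0.32 for Gabra5.

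GABA-A genes lie in clusters, in which neighbours could differ widely in level. On chromosome 11 (GRCm38), Gabra6 (chr11:42306437-42321072) and Gabrb2 (chr11:42419757-42629028) lie 3.87 and 3.56 Mb from Cyfip2. Gabra6 and Gabrb2 are divergent neighbours 98.7 kb apart, yet in WT Gabrb2 stood at 331 normalized counts per kb and Gabra6 at 0.646. Their promoters are shown because the levels of these neighbours lie so far apart. Each is the RefSeq window (GRCm38.p6) from 250 bases before to 50 after a transcript start, 5′ to 3′ on the gene's own strand. Capitals mark a GC box, spelled GGGCGG or, where it lies on the other strand, CCGCCC. They also mark TATAAA, a core promoter motif searched on both strands.
Gabrb2 (chr11:42420190-42420489, plus strand, 1 of 3 windows): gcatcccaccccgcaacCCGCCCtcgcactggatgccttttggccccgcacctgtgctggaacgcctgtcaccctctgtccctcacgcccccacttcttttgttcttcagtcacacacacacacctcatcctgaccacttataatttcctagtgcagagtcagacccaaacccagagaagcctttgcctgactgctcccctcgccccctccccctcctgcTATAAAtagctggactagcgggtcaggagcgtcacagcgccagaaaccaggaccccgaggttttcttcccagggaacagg
Gabra6 (chr11:42321023-42321322, minus strand): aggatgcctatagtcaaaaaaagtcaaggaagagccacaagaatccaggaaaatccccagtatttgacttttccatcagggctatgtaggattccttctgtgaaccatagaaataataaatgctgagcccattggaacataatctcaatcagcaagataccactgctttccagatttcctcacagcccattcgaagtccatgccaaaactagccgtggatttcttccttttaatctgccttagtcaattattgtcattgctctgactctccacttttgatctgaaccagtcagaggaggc
The Gabrb2 window holds 1 GC box and 1 TATAAA and has 59.0% G and C, while the Gabra6 window holds neither and has 42.0%. The window of Gria2, the highest member per kb of exon union, also holds 0 GC boxes and 0 TATAAA, with 65.7% G and C. The median of all 32851 windows was 52.7% G and C. The GC box was found in 35.7% of all windows and in 16 of 31 windows of members, which cover 24 of the 39 genes. TATAAA was found in 13.6% of all windows and in 3 of the 31. These matches describe letters only and say nothing of binding, and their part in the levels was not tested.

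In KO against WT, Gabrb2 had a log2 fold change of 0.01 ± 0.16. Gria1, 10.7 Mb from Cyfip2, had a value of 0.03 ± 0.18. Both values were within 1 SE of 0.

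On chromosome 5, Gabra4 (ENSMUSG00000029211, chr5:71569749-71658308, minus strand) and Gabrb1 (ENSMUSG00000029212, chr5:71658113-72149037, plus strand) are arranged head to head and overlap by 196 bases in GENCODE. Gabra4 forms extrasynaptic receptors with delta subunits, and Gabrb1 is a minor beta subunit of cortex. Gabra4 counts were 428, 551 and 452 in WT, 321, 422 and 479 in Het, and 491, 489 and 440 in KO. Gabrb1 counts were 314, 504 and 338 in WT, 203, 418 and 361 in Het, and 374, 459 and 330 in KO. Both genes were lowest in Het replicate 1 and highest in WT replicate 2. For Gabra4 the log2 fold change in Het against WT was -0.24 ± 0.16, and -0.08 without Het replicate 1. The sources used here do not say how reads in the overlap were assigned. Gabra2 was also lowest and highest in the same libraries. The windows at their starts, which do not overlap each other, are shown because the genes begin head to head.
Gabra4 (chr5:71658259-71658558, minus strand): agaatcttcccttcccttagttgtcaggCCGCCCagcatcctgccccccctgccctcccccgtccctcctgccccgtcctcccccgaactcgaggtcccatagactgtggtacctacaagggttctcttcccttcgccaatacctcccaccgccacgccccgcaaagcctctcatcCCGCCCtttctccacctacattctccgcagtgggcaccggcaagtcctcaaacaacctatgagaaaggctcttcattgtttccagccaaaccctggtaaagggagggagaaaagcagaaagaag
Gabrb1 (chr5:71657671-71657970, plus strand, 1 of 2 windows): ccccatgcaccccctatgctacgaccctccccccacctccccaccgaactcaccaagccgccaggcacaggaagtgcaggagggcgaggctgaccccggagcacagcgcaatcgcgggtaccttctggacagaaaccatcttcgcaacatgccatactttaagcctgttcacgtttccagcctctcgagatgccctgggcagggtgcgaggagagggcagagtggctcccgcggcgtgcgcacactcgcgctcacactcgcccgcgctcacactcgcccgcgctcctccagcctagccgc
The Gabra4 window holds 2 GC boxes in 58.7% G and C, and the Gabrb1 window holds 0 in 66.0%. Neither holds TATAAA. The RefSeq start behind the Gabrb1 window lies upstream of the GENCODE start, inside the span of Gabra4.

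Beta subunits are needed for assembly and binding of GABA. Gabrb2 means were 2106 ± 167, 2086 ± 352 and 2140 ± 380 in WT, Het and KO, and Gabrb1 means were 385 ± 103, 327 ± 111 and 388 ± 65.7.

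Gabrd forms extrasynaptic receptors, and Gabrg3 is a minor gamma subunit. Gabrd means were 115 ± 31.6, 106 ± 29.4 and 110 ± 14.1, and Gabrg3 means were 365 ± 73.4, 341 ± 106 and 382 ± 68.0.

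Gabre, Gabrq and Gabrr2 had the fewest counts of the tested subunits. Gabre, the epsilon subunit, had counts of 31.2, 32.2 and 13.9 in WT, 22.5, 21.4 and 9.21 in Het, and 16.2, 29.3 and 7.0 in KO. Gabrq, the X-linked theta subunit, had counts of 46.7, 33.0 and 28.4 in WT, 40.6, 27.1 and 18.9 in Het, and 46.6, 47.4 and 15.9 in KO. Gabrr2, a rho subunit best known from retina, had counts of 14.9, 15.9 and 21.0 in WT, 30.5, 16.5 and 21.4 in Het, and 14.0, 14.6 and 12.2 in KO. For Gabre and Gabrq replicate 3 was the lowest of each genotype, and the genotypes overlapped. For Gabrr2 all KO libraries lay below all others, by as little as 14.6 against 14.9 counts. The log2 fold change of Gabrr2 was -0.66 ± 0.31 in KO against Het and -0.31 ± 0.31 in KO against WT. The first was -0.44 without Het replicate 1, and the second -0.17 without WT replicate 3. One read was worth about 0.675 to 1.22 of these counts. Gabre had a log2 fold change of -0.64 ± 0.58 in KO against WT, which was -1.10 without KO replicate 2 and -0.14 without KO replicate 3.

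Subunit ratios within a library need no gene length, and 10 were tested in the 3 comparisons, 30 tests in all. The smallest two-sided p of the exact permutation test with 3 against 3 libraries is 0.10, and every adjusted p was 1.0. The ratio of Grin3a to Grin1 was the one that separated groups. It was 0.425, 0.418 and 0.509 in WT, 0.298, 0.308 and 0.383 in Het, and 0.547, 0.586 and 0.430 in KO. All Het libraries lay below all WT libraries and all KO libraries, while KO and WT overlapped. The difference in log2 ratio was -0.46 for Het against WT and 0.66 for KO against Het, each with an exact permutation p of 0.10.

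The other receptor ratios overlapped between genotypes in all 3 comparisons. These are count ratios, not corrected for length. Over the 9 libraries the ratio of Gria2 to the sum of the other AMPA genes ran from 2.53 to 3.99 and that of Grik2 to Grik5 from 0.288 to 0.417.

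Subunits of different families deviated together in single libraries. Het replicate 1 was the lowest of the 9 libraries for 19 of the 39 members, or 48.7%, where it was the lowest for 11.7% of all genes. The 19 included the alpha subunits Gabra2, Gabra3, Gabra4 and Gabra5, Gabrb1 and Gabrg3, the NMDA genes Grin1, Grin2b, Grin2d and Grin3a, and Gria1, Gria4, Grid1, Grik2, Grik4 and Grm5. With the libraries rescaled to their upper quartile, an alternative added after seeing the data, the number was 18. The median deviation of the members from their means was -0.26 on the log2 scale in Het replicate 1, where that of all genes was 0.00. In the same library the 10 cortical excitatory markers had a median deviation of 0.12 and the 10 interneuron markers 0.34. Markers of some other tissues and cells were higher there. Medians were 2.42 for olfactory bulb, 1.02 for meninges, 0.80 for striatum, 0.56 for erythroid cells and 0.29 for endothelium. They were 0.28 for thalamus, 0.12 for radial glia and astrocytes, 0.06 for the oligodendrocyte lineage and 0.00 for Cajal-Retzius cells. Values were negative for choroid plexus (-0.03), hippocampus (-0.10) and the 1 tested cerebellar or hindbrain gene (-0.31). KO replicate 1, with medians of 2.24 for bulb and 1.33 for meninges, had a member median of -0.12, and KO replicate 2, with 1.85 and 0.74, had 0.18. WT replicate 1, with -2.39 for bulb and 0.13 for meninges, also had a member median of -0.12. There 32 of the 39 members lay below their own means, and 28 did so in Het replicate 1. The part of these markers in the member values was not tested.

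WT replicate 3 was the highest library for 11 members, or 28.2%, against 9.18% of all genes, and KO replicate 2 for 10, or 25.6%, against 13.0%. KO replicate 2 was the lowest for 0 members, where it was the lowest for 16.0% of all genes. The member medians of these libraries were 0.22 and 0.18. Het replicate 3, in which meningeal markers were lowest (a median deviation of -4.57, with Col1a1 at 87.2 against 2206 to 5328 elsewhere), had a member median of 0.14. What sets these libraries apart was not tested.

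**Figure D4:**
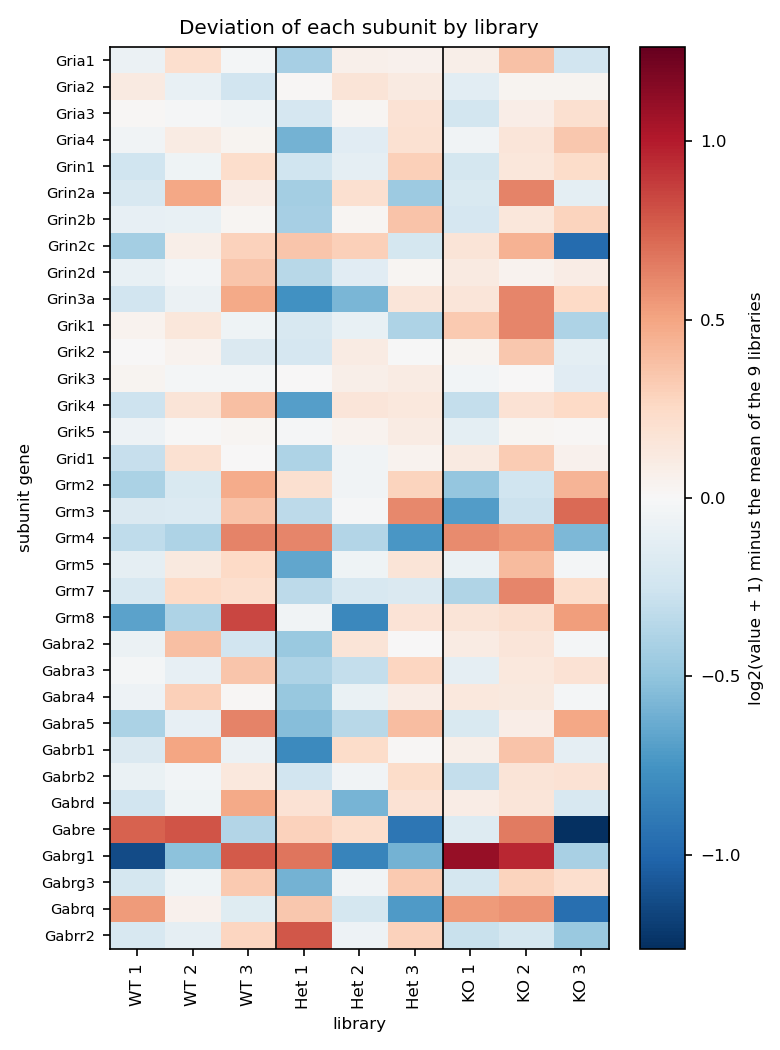
Deviation of log2(value + 1) from the mean of the 9 libraries for 34 subunit genes (rows) in each library (columns), with red above and blue below the mean. The column of Het replicate 1 is mostly blue and has the lowest value in 16 rows, and that of KO replicate 2 has the lowest value in 0.

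The median fold changes of the members depended on single libraries. In KO against WT 26 of the 39 members had a positive value (48.4% of all genes), with a median log2 fold change of 0.03. In Het against WT 12 were positive (46.2% of all genes), with a median of -0.13, and in KO against Het 31 were positive (50.4% of all genes), with a median of 0.20. The medians of all genes were between -0.01 and 0.00. The Het against WT median was 0.03 without Het replicate 1, 0.03 without WT replicate 3, -0.23 without WT replicate 1 and -0.08 without Het replicate 2. The KO against Het median was 0.04 without Het replicate 1 and 0.10 without KO replicate 2. The KO against WT median was -0.03 without WT replicate 1, -0.00 without KO replicate 2, 0.11 without WT replicate 3 and 0.13 without KO replicate 1. The sign held for 38 of the 117 member fold changes in every alternative fit that included the gene, of which there were 21, or 20 for Gabre, Gabrq and Gabrr2. In these fits 0 members were called.

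Gabrg1 and Grm4 stood out in the libraries that held olfactory bulb RNA. Gabrg1 (ENSMUSG00000001260, chr5:70751047-70842617), a gamma subunit found in few brain regions, had counts of 58.8, 90.2 and 223 in WT, 207, 72.1 and 85.3 in Het, and 279, 251 and 97.3 in KO. Grm4, a presynaptic receptor, had counts of 235, 223 and 454 in WT, 452, 226 and 176 in Het, and 444, 430 and 198 in KO. For both genes the 4 libraries lay above the other 5, with mean ratios of 2.98 for Gabrg1 and 2.11 for Grm4. In all, 3 of the 39 members did so, or 7.69%, where 4.35% of all genes lay wholly above. Wholly below were 0 members and 2.59% of all genes, so that 6.95% of all genes were apart in either direction. Of the 8 bulb markers, summed counts were 3197 to 4595 in the 4 libraries and 790 to 943 in the others. Ms4a15, a bulb marker, was at 0 in all 5 others. The libraries without Ddx3y were 3 of the 4, so bulb RNA and sex overlap.

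**Figure D5:**
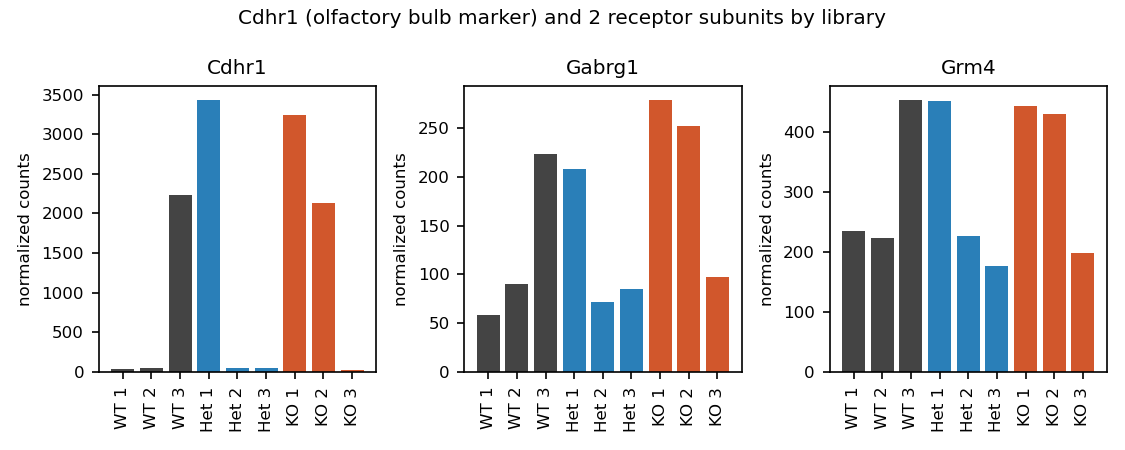
Normalized counts per library (bars from 0, coloured by genotype) of Cdhr1, an olfactory bulb marker, and of Gabrg1 and Grm4. The same 4 libraries, WT replicate 3, Het replicate 1, KO replicate 1 and KO replicate 2, carry the highest bars in all 3 panels.

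Gabrg1 had the smallest unadjusted p of the members in KO against WT, with a log2 fold change of 0.84 ± 0.61 and a 95% interval of -0.54 to 2.22 (limma adjusted p = 1.0). KO held 2 of the 4 libraries with bulb RNA and WT held 1. The log2 fold change was 0.29 with a bulb marker score as covariate and -0.11 with sex as covariate. Without the 4 libraries, where KO replicate 3 was the only KO library left, it was 0.41. It was 1.37 without WT replicate 3 and 0.42 without WT replicate 1. For Grm4 in KO against WT the value was 0.22 ± 0.45, with -0.18 under the bulb score, -0.55 under sex and -0.21 without the 4 libraries.

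Genes that serve these receptors were read from 11 lists, and limma called 0 of their members in any comparison. Chloride balance is set by Slc12a2 and Slc12a5. Counts of the importer Slc12a2 averaged 2317 ± 268, 2463 ± 242 and 2591 ± 219 over WT, Het and KO, and those of the exporter Slc12a5 were 1591 ± 349, 1495 ± 102 and 1907 ± 519 (SD, n = 3). The count ratio of Slc12a5 to Slc12a2 ran from 0.524 to 0.982 over the 9 libraries and overlapped between genotypes. Of the 7 tested chloride transport genes, 5 had positive values in KO against WT, with a median of 0.08, where 48.4% of all genes did.

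The GABA-synthesizing enzymes Gad1 and Gad2 had log2 fold changes of 0.18 ± 0.37 and 0.21 ± 0.30 in KO against WT. All 6 genes of GABA synthesis and transport were positive in that comparison, with a median of 0.16, and 5 of 6 were negative in Het against WT, with a median of -0.14. Of all genes, 48.4% were positive in KO against WT and 46.2% in Het against WT. The median deviation of the 10 interneuron markers was 0.28 to 0.55 in the 4 libraries with bulb RNA. In the other 5 it was -0.58 to 0.02. Among the 4, it was 0.34 to 0.55 in the 3 without Ddx3y. Gad1, Gad2 and Slc32a1 stand in both the marker list and the list of GABA synthesis and transport. The part of the interneuron markers in these signs was not tested. The vesicular glutamate transporters Slc17a6 and Slc17a7 had values of -0.01 ± 0.11 and 0.13 ± 0.26 in KO against WT. Adarb1, an enzyme that edits receptor transcripts, had 0.13 ± 0.17.

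Proteins that accompany AMPA receptors had 6 of 20 positive values in KO against WT (median -0.04), where 48.4% of all genes were positive. In Het against WT 5 of 20 were positive (median -0.09), beside 46.2% of all genes. In KO against Het 11 of 20 were positive (median 0.03), beside 50.4% of all genes. Of the 93 genes tested in the 11 lists, 2 had an unadjusted p under 0.05 in Het against WT, or 2.15%, where 1.61% of all genes did, and 0 in the other comparisons. One was Cpt1c, a protein that accompanies AMPA receptors, with 2520, 2603 and 2523 counts in WT, 2729, 2737 and 2937 in Het, and 2643, 2892 and 2614 in KO. Its log2 fold change in Het against WT was 0.14 ± 0.06. Gabarapl1, a relative of the GABA-A receptor-binding protein GABARAP, was the other. It had 5772, 5880 and 6191 counts in WT, 5140, 5195 and 5544 in Het, and 5128, 5662 and 5844 in KO, and a log2 fold change of -0.17 ± 0.06 in Het against WT. For both genes the Het libraries did not overlap those of WT, as for 6.67% of all genes, the limma adjusted p was 1.0, and KO overlapped Het. The anchoring proteins of AMPA and NMDA receptors had 11 of 18 positive values in KO against WT (median 0.01), and the GABA-A clustering proteins 6 of 11 (median 0.00).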

How the data were processed

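RNA from 9 cortex libraries was analysed, grouped by the genotype in the sample labels. The deposited table holds a signal per gene, which the authors made by dividing gene counts by library size factors, as the file headers say and its values show. Per the submitters' processing notes, tools included DESeq2 1.19.11, Salmon 0.11.2 and R 3.6.0, with the build GRCm38. The annotation and how overlapping genes were counted are not given in the sources used here. Of the values between 0 and 6, 60.8% to 78.2% per library lay within 0.1 of an estimated whole number of reads. The rest did not, so count tests were left out. The scale was log2(value + 1), over 15069 genes whose mean reached 10, and fold changes on this scale understate those of low genes. limma 3.58.1 (R 4.3.3, with lmFit and eBayes with a trend) fitted 1 mean per genotype over all 9 libraries. Tests were two-sided, with Benjamini-Hochberg adjustment over all genes tested and a threshold of 0.05. The fit was also run on simulated counts with the same spread setting for every gene and no bulb or sex differences. That run therefore does not show how the fit performs at the spread of these libraries. Intervals are limma's at 95%.

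Symbols, exon lengths and positions came from GENCODE M21 (18783 of 18820 IDs matched), and promoters from RefSeq. Members and lists were chosen with earlier results of these data known. Results of some members are not reported here, though counts over members include them. Counts in each library are given for reported members at the top of a family, genes of known developmental switches, and the 5 members with the smallest p per comparison or the largest SD. Replicate numbers were taken to pair libraries where each same-numbered pair of deviations from the group means correlated over 0.1: Het and KO did (0.10 to 0.47, against -0.46 to 0.15 for other numbers), WT and Het (-0.07 to 0.25) and WT and KO (-0.03 to 0.06) did not. Alternatives were other pseudocounts, filters, scalings, covariates and fits, and leaving out each library.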

Additional observations from a re-analysis of the deposited data

How the results depend on the processing

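No member was called under any of the 21 alternative limma fits, 1 of which left out 3 members for their low values, and in which at most 1 of all genes was called. The range of the member medians when each library was left out was -0.03 to 0.13 in KO against WT, -0.23 to 0.03 in Het against WT and 0.04 to 0.24 in KO against Het. Without the 4 libraries with bulb RNA, a setting added after seeing the data, the Het against WT median was 0.081 and turned positive, and 1 KO library remained.

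The shares of the leading subunits in WT depended on the gene length used. With the longest transcript they were 59.3% for Gria2, 82.7% for Grin2b, 57.7% for Grik5 and 33.0% for Grm3. With the median transcript length they were 78.9%, 99.3%, 80.5% and 17.0%, and 19.4% for Gabra5. With the union of exons, as used for the main shares, the Het libraries had 59.5% for Gria2, 86.4% for Grin2b and 39.9% for Grm3. The KO libraries had 35.3% for Grm3 with that length. With the median transcript length Grm5 (42.4%) stood above Grm3, and Gabra3 (35.1%) above Gabra5.

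With the replicate number as a block 0 members were called. In KO against WT, Het against WT and KO against Het, 0, 1 and 6 members had an unadjusted limma p under 0.05. The shares of all genes were 2.54%, 3.27% and 6.53%. Without the block the counts were 0, 0 and 1, and the shares of all genes 1.18%, 1.61% and 3.59%. The block changed no call. Values of the 5 subunits under the mean of 10 ran from 0 to 11.6 counts per library. The part of depth in these low values was not tested.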

Other observations

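Receptor subunit genes are long. The median genomic span of the 39 members was 223 kb, against 24.3 kb for all tested genes with a position, and 25 of the members spanned at least 100 kb (15.2% of all genes). Het replicate 1 was the lowest library for 14 of these 25 and for 5 of the 14 shorter members. Among all genes it was the lowest for 18.9% of those of at least 100 kb and for 10.4% of the shorter ones. The comparison by span was chosen after the values were seen. Spans within each class were not matched between members and all genes, and the part of span in these values was not tested.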
